A study of Mus musculus with 3 samples.

Results

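The sirtuins are a family of NAD-dependent enzymes, and their 7 mouse genes, Sirt1 to Sirt7, were followed here through every probe set that the array annotation assigned to 1 of them and to no other gene. All 7 were measured, by 9 probe sets of the 34958 that were assigned to 1 gene, and they are 7 of 18194 measured genes. Sirt5 had 3 probe sets and each of the other 6 genes had 1. The RNA came from 3T3-L1 adipocytes, a mouse fibroblast line turned into fat cells in the dish, after treatment with glucose oxidase, which oxidises glucose and gives off hydrogen peroxide. By the study's text the treatment lasted 2 h and the cells served as a positive control for oxidative stress, while the labels call them insulin resistant. There were 3 samples in 1 group, named replicates 1 to 3, hybridised to Affymetrix mouse4302 arrays. Whether each sample was a culture of its own is not stated, so their spread may be only technical. Untreated cells were not analysed here, so no value is a response to the treatment, and no test between conditions could be run.

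Sirtuins remove acetyl and longer acyl groups from lysine residues of proteins, and each reaction cleaves a molecule of NAD and releases nicotinamide, which inhibits the enzymes. The members differ in where they work. Sirt1, Sirt6 and Sirt7 are mainly nuclear, Sirt2 is mainly cytosolic, and Sirt3, Sirt4 and Sirt5 are mitochondrial. In adipocytes, Sirt1 is known to restrain the fat cell regulator PPARγ and to favour fat mobilisation, and Sirt2 is known to restrain differentiation through the transcription factor FOXO1.

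The labels name the tissue as preadipocytes, but the growth protocol describes differentiated cells, so both sets of markers were examined. All 11 measured adipocyte markers were above background, including the adiponectin gene Adipoq, whose log2 intensity was 14.49 ± 0.03 (SD, n = 3), and the lipid droplet gene Cidec at 13.59 ± 0.01 (SD, n = 3). Of 7 measured preadipocyte markers, 5 were above background. These were Dlk1, which encodes the preadipocyte factor PREF1, at 13.24 ± 0.10, the growth factor receptor genes Pdgfra and Pdgfrb at 10.82 ± 0.17 and 10.60 ± 0.07, Thy1 at 10.50 ± 0.08 and Gata2 at 7.76 ± 0.11 (SD, n = 3). The other 2, Cd34 at 5.49 ± 0.08 and Gata3 at 5.75 ± 0.12 (SD, n = 3), lay under the limit. Of 2 Dlk1 probe sets only 1 was above background, and the _s_at ending of its name marks probes that other transcripts may share. Above background were also 1 of 2 Gata2 and 2 of 3 Pdgfra probe sets, and all those of Pdgfrb and Thy1. Markers of both states were thus above background, as were 54.4% of all measured genes. Of 6 macrophage markers, 2 were above background, Lyz2 and Csf1r, while Adgre1, Cd68, Itgam and Ptprc were not. Their part in the sirtuin levels was not tested. The arrays were close to each other, with Pearson's r of 0.997 to 0.998 for the pairs of arrays across the 17449 probe sets above background.

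A probe set counted as above background when its log2 intensity was over 7.58 in all 3 arrays. This limit was the 95th percentile of the mean intensities of 83 probe sets for receptors of smell, pheromones and taste, genes best known from sensory tissue. A gene counted as above background when any of its probe sets did. By this rule all 7 sirtuin genes were above background, against 54.4% of all measured genes. Of their 9 probe sets, 8 were above it, against 45.1% of all probe sets assigned to 1 gene. Probes differ in how strongly they bind, so the intensity of one probe set says nothing of its transcript's amount relative to another's, and no order is drawn between the sirtuins. The plot of the levels by array shows each probe set beside this limit.

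**Figure D1:**
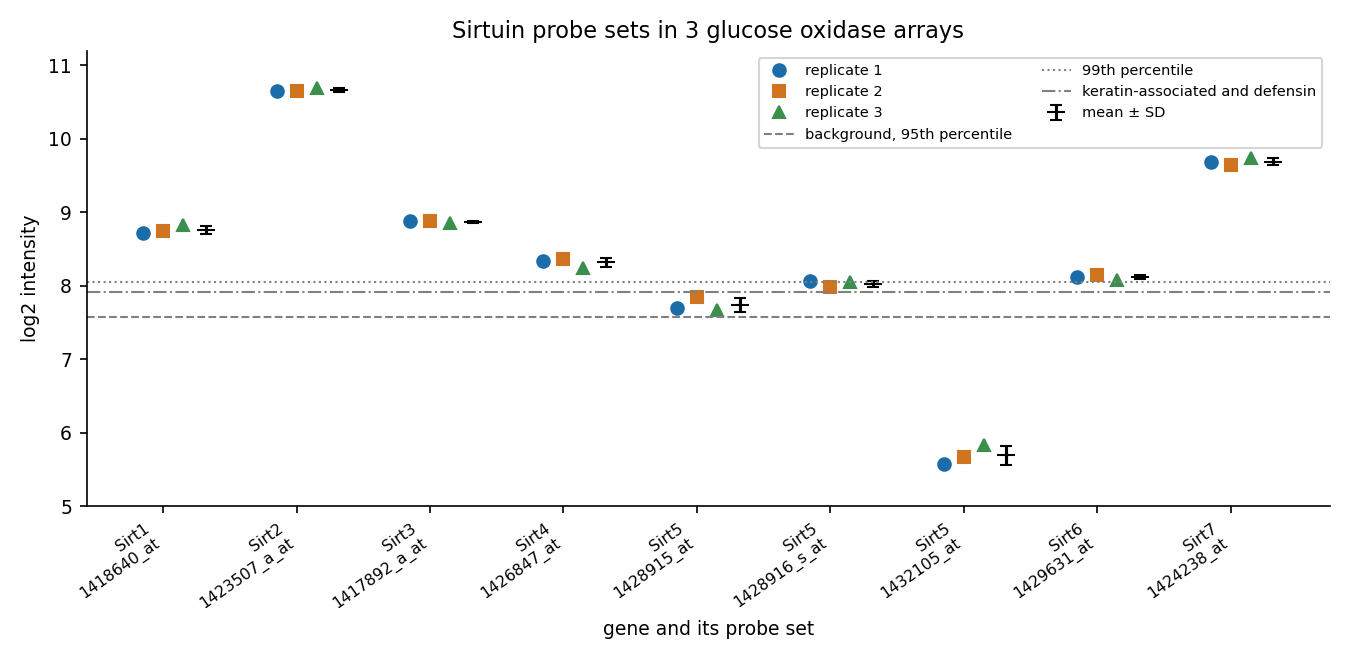
Log2 intensity (y axis) of the 9 sirtuin probe sets (x axis) in the 3 glucose oxidase arrays, with 1 symbol per replicate, the mean ± SD as black bars (n = 3) and 3 alternative background limits as horizontal lines at 7.58, 7.91 and 8.05. All symbols but those of the Sirt5 probe set 1432105_at lie above the lowest line, and heights of different probe sets are not comparable.

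The DNA before the gene starts also differs within the family, and 2 of these windows are shown because they are the ends of the range among the members. Many genes that most cells transcribe have starts rich in CpG, a C followed by a G, which is otherwise scarce in mammalian DNA. The CpG ratio is the number of CpG observed over the number that the C and G content would give, and it was computed on the 250 bases before each start in RefSeq, assembly GRCm38.p6. All 7 members had such a window, and the one farthest upstream was used for each gene. In the 2 windows below, written 5′ to 3′ on the gene's strand, each CpG is in capitals.
Sirt1, chr10:63339036-63339285, minus strand: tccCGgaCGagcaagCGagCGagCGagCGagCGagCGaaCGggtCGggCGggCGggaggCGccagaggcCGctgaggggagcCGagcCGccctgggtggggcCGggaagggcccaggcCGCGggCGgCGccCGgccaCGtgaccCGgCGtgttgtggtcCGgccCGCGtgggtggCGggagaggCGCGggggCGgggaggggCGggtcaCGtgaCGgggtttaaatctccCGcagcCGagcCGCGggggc
Sirt5, chr13:43365285-43365534, plus strand: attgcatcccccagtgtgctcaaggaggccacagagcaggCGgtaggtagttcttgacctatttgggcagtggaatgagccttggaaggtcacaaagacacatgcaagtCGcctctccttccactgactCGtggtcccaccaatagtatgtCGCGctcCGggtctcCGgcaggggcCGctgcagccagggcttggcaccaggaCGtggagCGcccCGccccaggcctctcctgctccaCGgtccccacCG

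The Sirt1 window held 39 CpG and was 79.2% C or G, with a CpG ratio of 1.07, the highest of the family. The Sirt5 window held 13 CpG at 62.8% C or G, with a ratio of 0.53, the lowest. The other 5 ranged from 0.65 for Sirt6 to 0.86 for Sirt3, with Sirt4 at 0.80, Sirt2 at 0.85 and Sirt7 at 0.86. The ratio was over the median of all genes, 0.63, in 6 of the 7 members, all but Sirt5. For Sirt3 and Sirt6, RefSeq lists a further start, whose windows had ratios of 0.72 and 0.92.

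Across 14369 genes with a level and a window, 7089 had a CpG-rich window, taken as a ratio over 0.6 with over 50% C or G. Of these, 74.7% were above background, against 37.5% of the 7280 others. The members fell on both sides of this limit. Sirt1, Sirt3, Sirt4 and Sirt6 were CpG-rich, Sirt2 and Sirt7 missed the limit on C and G content at 50% and 48.8%, and Sirt5 missed it on the ratio, yet all 7 genes were above background. These shares run across genes, which are not replicates, and describe the windows only.

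**Figure D2:**
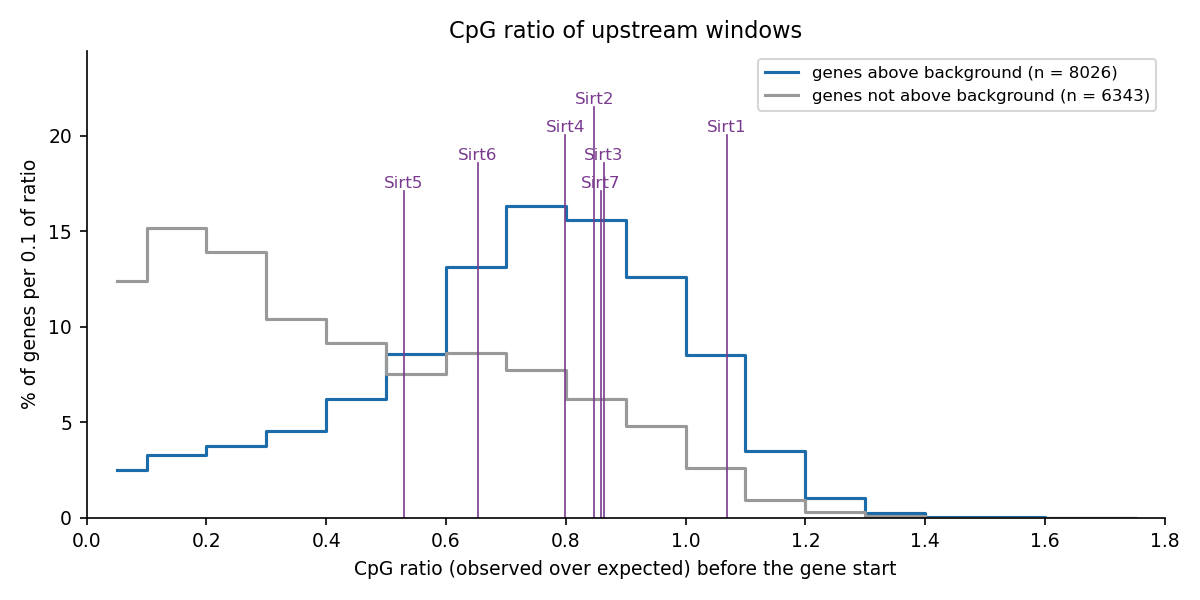
Share of genes (y axis, percent per 0.1 of ratio) by CpG ratio of the 250 bases before the gene start (x axis), for 8026 genes above background in blue and 6343 not above it in grey. Vertical lines mark the 7 sirtuin genes, which run from 0.53 for Sirt5 to 1.07 for Sirt1, with 6 of them over the median of 0.63.

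Among the nuclear members, Sirt1 encodes a deacetylase of histones and of transcription factors such as p53 and FOXO proteins. Its probe set (1418640_at) was at log2 intensities of 8.72, 8.74 and 8.83 in replicates 1, 2 and 3, a mean of 8.76 ± 0.06 (SD, n = 3). Replicate 3 was the highest and replicate 1 the lowest, and they differed by 1.08-fold.
Sirt6, whose product deacetylates histone H3 at telomeres and at genes of glucose use, was at 8.12, 8.14 and 8.09 (1429631_at), a mean of 8.12 ± 0.03 (SD, n = 3). These 3 values lay within 1.04-fold of each other. Of the 83 receptor probe sets that set the background, 1 was at or above this mean.
Sirt7, which encodes a nucleolar member linked to transcription of ribosomal RNA, was at 9.69, 9.65 and 9.74 (1424238_at), a mean of 9.69 ± 0.05 (SD, n = 3). It cleared the limit by 2.07 in its lowest array, and none of the receptor probe sets reached its mean.

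Sirt2 encodes the cytosolic member, a deacetylase of tubulin and of several metabolic enzymes. Its probe set (1423507_a_at) was at 10.66, 10.65 and 10.69 in replicates 1, 2 and 3, a mean of 10.66 ± 0.02 (SD, n = 3). It was over the limit by 3.07 in its lowest array, and none of the receptor probe sets reached its mean. The ending of its name marks probes that match several transcripts of the same gene, so its level can hold more than 1 form of the transcript.

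Of the mitochondrial members, Sirt3 encodes the main deacetylase of that compartment. It was at 8.88, 8.88 and 8.86 (1417892_a_at), a mean of 8.87 ± 0.01 (SD, n = 3), the smallest spread among the sirtuin probe sets. Only 3.78% of all probe sets above background varied less between these arrays.
Sirt4, whose product acts on the pyruvate dehydrogenase complex and on glutamate dehydrogenase, was at 8.34, 8.37 and 8.25 (1426847_at), a mean of 8.32 ± 0.06 (SD, n = 3). Replicate 3 was the lowest, 1.09-fold below replicate 2. Of the receptor probe sets, 1 was at or above its mean.
Sirt5, which encodes a remover of succinyl, malonyl and glutaryl groups, had 3 probe sets, of which 2 were above background. The probe set 1428916_s_at was at 8.06, 7.99 and 8.05, a mean of 8.03 ± 0.04 (SD, n = 3), and the ending of its name marks probes that other transcripts may share. The probe set 1428915_at was at 7.69, 7.85 and 7.67, a mean of 7.74 ± 0.10 (SD, n = 3), and cleared the limit by 0.09 in its lowest array. The annotation gives the same cDNA for both. The probe set 1432105_at was at 5.57, 5.68 and 5.83, a mean of 5.69 ± 0.13 (SD, n = 3), below the limit in all 3 arrays, with 42 of the 83 receptor probe sets at or above it.

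Among the limits tried, the choice decided the call of Sirt5 alone. With the 99th percentile of the receptor probe sets, a log2 intensity of 8.05, 6 of the 7 members were above background, all but Sirt5, against 47.8% of all genes. With 67 probe sets for keratin-associated proteins and defensins in place of the receptors, the limit was 7.91 and all 7 members were above it, against 49.7% of all genes. Sirt6, at 8.09 in its lowest array, cleared the highest of these limits by less than 0.1.

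The sirtuin transcripts differed little between the 3 arrays. The SD of the 8 probe sets above background ranged from 0.011 to 0.097 on the log2 scale, with a median of 0.043, beside a median of 0.051 and quartiles of 0.031 and 0.076 for all probe sets above background. The SD was under that median of all in 5 of the 8. The widest difference between 2 arrays was 1.13-fold, for Sirt5 by 1428915_at. Which of these medians was the smaller depended on the arrays used. Without replicate 1 it was 0.052 for the 8 and 0.039 for all probe sets, without replicate 2 it was 0.025 and 0.047, and without replicate 3 it was 0.019 and 0.038.
No array was high for the whole family. Of the 8 probe sets, 3 were highest in replicate 3, those of Sirt1, Sirt2 and Sirt7, against 42.5% of all probe sets above background. Another 4 were highest in replicate 2, those of Sirt3, Sirt4, Sirt6 and Sirt5 by 1428915_at, against 33.6%, though Sirt3 was equal in replicates 1 and 2 to the printed digits. The remaining 1, Sirt5 by 1428916_s_at, was highest in replicate 1, against 23.9%. The 2 Sirt5 probe sets above background thus went opposite ways, since replicate 2 was the highest array for one and the lowest for the other. Sirt3, Sirt4, Sirt6 and Sirt5 by 1428915_at were lowest in replicate 3. The share of all probe sets lowest there was not computed. The arrays belong to 1 group and differed by at most 1.13-fold for these 8, so their order draws no grouping of the sirtuins.

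**Figure D3:**
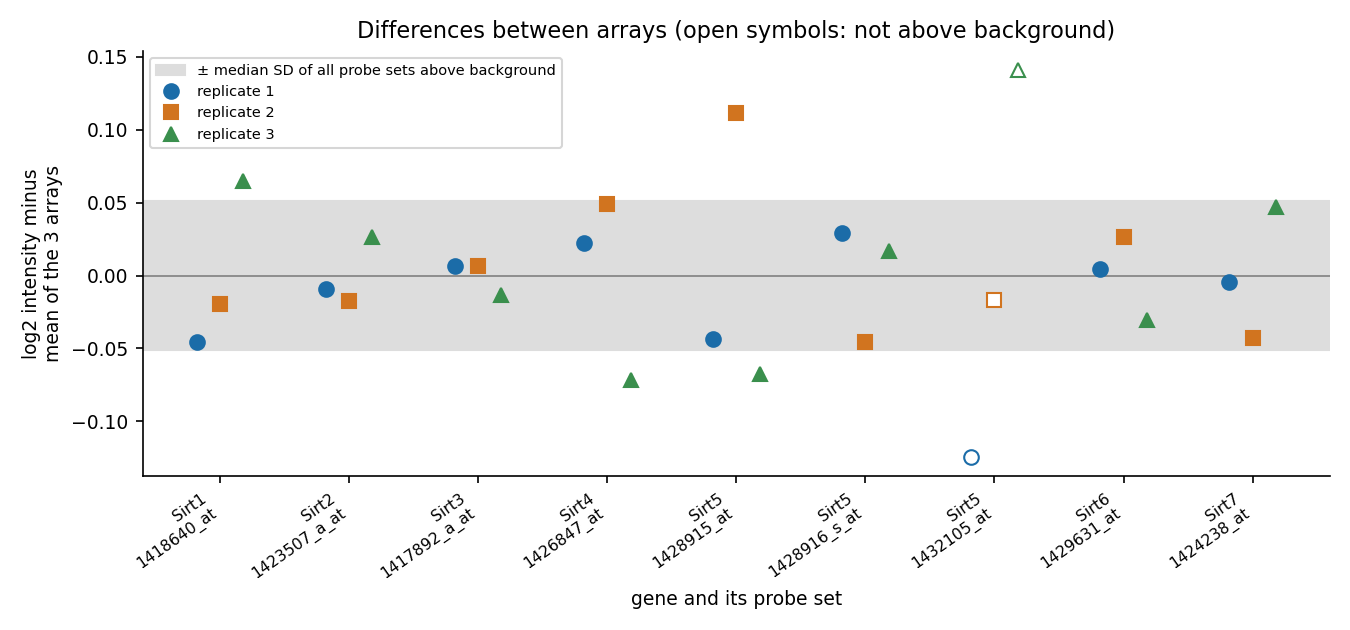
Log2 intensity minus the mean of the 3 arrays (y axis) for the 9 sirtuin probe sets (x axis), with 1 symbol per replicate, open where the probe set was not above background. The grey band is ± 0.051, the median SD of all probe sets above background, and the symbols outside it belong to Sirt1, Sirt4 and 2 probe sets of Sirt5.

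Sirtuins depend on NAD. Of 17 measured genes in a list of NAD synthesis, 5 were above background, or 29.4%. The share of all measured genes was 54.4%, and the list's share depends on which genes it holds. The 5 were Nampt, Nmrk1 and Nmnat2, and also Nadk and Nadk2, which encode kinases that turn NAD into NADP and do not make NAD. Nampt encodes the enzyme that recycles nicotinamide, the product of the sirtuin reaction, and was at log2 intensities of 11.39, 11.39 and 11.40 in replicates 1, 2 and 3. Its SD was 0.0019, below those of all 9 sirtuin probe sets, and its 3 probe sets were all above background. Nadk, which encodes the cytosolic one of these kinases, was at 11.59 ± 0.01 (SD, n = 3), and Nmrk1, which encodes nicotinamide riboside kinase, at 8.37 ± 0.11 (SD, n = 3). Of 3 Nmrk1 probe sets only 1 was above background, and of 4 Nadk2 probe sets 2 were.
The enzymes that form NAD from its mononucleotide precursor are encoded by Nmnat1 to Nmnat3 for the nucleus, the Golgi and cytosol, and mitochondria. Nmnat1 was at 7.35, 7.58 and 7.52, just under the limit, and Nmnat3 was at 5.87 ± 0.05 (SD, n = 3). Nmnat2 passed narrowly, at 7.60, 7.69 and 7.75. Naprt, which starts synthesis from nicotinic acid, was at 7.54 ± 0.02 (SD, n = 3), also just under the limit. With the 90th percentile of the receptor probe sets as the limit, 8 of the 17 genes were above background, and with the median of each gene's probe sets 3 were.

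Other enzymes that use NAD, or that clear nicotinamide, were above background in 8 of 9 measured genes, against 54.4% of all genes. Parp1 and Parp2, which encode poly(ADP-ribose) polymerases activated by DNA breaks, were at 10.36 ± 0.08 and 8.87 ± 0.03 (SD, n = 3). Nnmt, which encodes the methyltransferase that removes nicotinamide, was at 11.35 ± 0.08 (SD, n = 3). Bst1, which encodes an ADP-ribosyl cyclase of the cell surface, was not above background, at 4.99 ± 0.13 (SD, n = 3).

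Regulators of the sirtuins were above background in 6 of 7 measured genes, against 54.4% of all genes. Ccar2, whose product DBC1 binds and inhibits Sirt1, was at 9.14 ± 0.05 (SD, n = 3), and Rps19bp1, whose product AROS activates it, was at 10.06 ± 0.05 (SD, n = 3). Hic1, which encodes a repressor of Sirt1 transcription, was at 8.88 ± 0.05 (SD, n = 3), and the deubiquitinase gene Usp22 at 10.82 ± 0.03 (SD, n = 3). Prkaa2, which encodes a catalytic subunit of the energy sensor AMPK, was not above background, at 7.25 ± 0.02 (SD, n = 3). Prkaa1, which encodes another catalytic subunit of AMPK, was above it, at 8.92 ± 0.07 (SD, n = 3).

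Genes for proteins that sirtuins act on were mostly above background in each compartment, beside 54.4% of all measured genes. For nuclear proteins the count was 12 of 12 measured, with Foxo1 at 9.98 ± 0.01, Foxo3 at 9.34 ± 0.05 and the coactivator gene Ppargc1a at 8.50 ± 0.07 (SD, n = 3). Of 5 Ppargc1a probe sets, 2 were above background. For cytosolic proteins the count was 3 of 4, with Acly, which encodes ATP citrate lyase, at 12.70 ± 0.03 and the acetyl-CoA synthetase gene Acss2 at 11.69 ± 0.06 (SD, n = 3). The mitotic checkpoint gene Bub1b was at 7.57 ± 0.06 (SD, n = 3) and exceeded the limit in 2 of the 3 arrays.
For mitochondrial proteins, which Sirt3, Sirt4 and Sirt5 act on, the count was 14 of 17. Sod2, which encodes the manganese superoxide dismutase, was at 12.57 ± 0.05, the isocitrate dehydrogenase gene Idh2 at 10.95 ± 0.06 and the glutamate dehydrogenase gene Glud1 at 11.60 ± 0.02 (SD, n = 3). The 3 not above background were Cps1 and Otc, which encode enzymes of the urea cycle, and Acss1, which encodes the mitochondrial acetyl-CoA synthetase. Acss1 was at 5.94 ± 0.05 (SD, n = 3), and all 3 of its probe sets were below the limit, whereas 2 of the 3 of its cytosolic counterpart Acss2 were above it.

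The other deacetylases of lysine, which use zinc in place of NAD, were above background in 9 of 11 genes. The sirtuins had 7 of 7, and of all measured genes 54.4% were above background. Hdac1 was at 10.58 ± 0.03, Hdac3 at 10.13 ± 0.05 and Hdac6, whose product shares tubulin as a substrate with Sirt2, at 9.63 ± 0.05 (SD, n = 3). Hdac8, at 7.09 ± 0.15 (SD, n = 3), and Hdac9, at 6.75 ± 0.09 (SD, n = 3), lay under the limit. The median SD of the zinc-dependent genes above background, by the highest probe set of each gene, was 0.046. The 0.043 of the sirtuins was taken over all 8 probe sets above background, so the measures are not quite alike. None of these counts was tested against another.

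**Figure D4:**
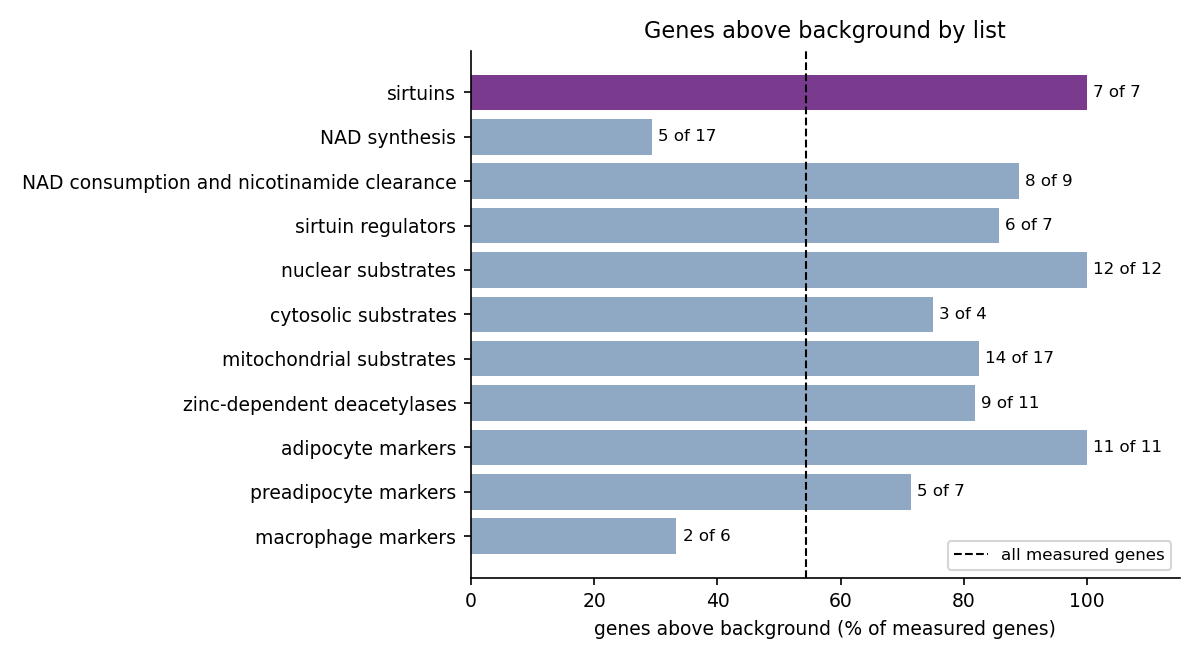
Percent of measured genes above background (x axis) in the sirtuin family and in 10 gene lists (y axis), with the number above background of the number measured beside each bar. The dashed line marks 54.4%, the share of all measured genes, and only NAD synthesis and macrophage markers lie below it.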

How the data were processed

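RNA of 3 glucose oxidase samples was measured on mouse4302 arrays. The authors deposited probe set intensities, which according to the methods had been corrected for background and normalized by RMA in affyPLM (version not stated). These intensities are linear, with array medians of 126.9 to 127.6, so log2 was taken. Any later scaling or centring stays unknown, as does which arrays were normalized together. RMA makes the arrays' distributions alike, so the spread between arrays is what was left afterwards. The number of arrays sets the precision.

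Genes came from the platform annotation, and the Entrez identifiers and symbols of all 7 sirtuins matched RefSeq (GRCm38.p6). Of 45101 probe sets, 34958 had 1 gene, and none paired a sirtuin with another gene. The probe set with the highest mean stands for a gene. The lists (7 of context, 3 of markers) and genes to describe were fixed by name, plus genes not above background where a list had 5 or fewer, and were chosen with earlier results of these data known. Of 85 context genes, 77 had a probe set and the others, Cd38 among them, were not analysed here, nor were protein sequences. Alternatives concerned the limit, the background genes, how probe sets of a gene were combined or left out, centring, the measure of spread and each array in turn. Calls and spreads were tested on simulated data. The outcome is not given here, and the accuracy of calls near the limit was not tested. Python 3.11.15, pandas 2.3.3, numpy 2.4.6 and matplotlib 3.10.9 were used.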

Additional observations from a re-analysis of the deposited data

How the results depend on the processing

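No paired analysis was possible because every array belongs to a single group. All 7 sirtuin genes were above background as reported, and the count stayed within 1.5 times it under every alternative. That rule is loose, since the count could not rise and 5 would still pass. It was 6 with the 99th percentile, which left out Sirt5, against 47.8% of all genes. Without probe sets named _x_at, _s_at or _a_at it was 5 of the 5 genes measured, against 49.7% of all genes. Sirt2 and Sirt3 had only such probe sets. Without _x_at and _s_at probe sets alone, an alternative chosen after seeing the data, it was 7, against 53.0% of all genes. The median SD of the sirtuin probe sets, 0.043, ranged from 0.019 to 0.052 when each array was left out. Without replicate 1 it was over that of all probe sets above background (0.052 against 0.039). Over the 5 sirtuin probe sets above background not named _x_at, _s_at or _a_at it was 0.058. The 0.051 of all probe sets above background still included probe sets so named, so these values are not like for like. Of the list counts, NAD synthesis was 8 with the 90th percentile and 3 with the median of probe sets, nuclear substrates 7 of the 7 measured without _x_at, _s_at and _a_at probe sets, and preadipocyte markers 3 of 6 without them. The count of nuclear substrates changed only because 5 genes were no longer measured. Preadipocyte markers were 4 of 7 without _x_at and _s_at probe sets alone, and Dlk1 was then not above background. The level of Sirt5 was 7.74 with the median of probe sets, and also without _x_at and _s_at probe sets, in place of 8.03. Neither centring nor the loss of 1 array can by construction move a mean level by over 1 SD here. Signal near background limits the calls of Sirt5, Sirt6 and Nmnat2, and also of Gata2, Sarm1 and Crtc2. With limits of 7.91 or 8.05, preadipocyte markers were 4 of 7 and nuclear substrates 11 of 12. Genes of NAD use or nicotinamide clearance were 7 of 9 there.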
